A study of Homo sapiens with 4 samples.

Results

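The genes described here encode 40 human proteins of ribosome biogenesis and the nucleolus, found by symbol among the 58735 genes of the deposited table, where each symbol matched a protein-coding gene. They fall into 6 roles: 3 box C/D snoRNP proteins, 4 box H/ACA snoRNP proteins, 7 multifunctional nucleolar proteins, 10 small subunit factors, 11 large subunit factors and 5 proteins of RNA polymerase I transcription. The cells were OVCAR8, a long-established line from a human ovarian cancer, sequenced as RNA in 2 groups of 2 libraries. In shFAM49B the cells carried short hairpin RNAs against FAM49B in the lentiviral GIPZ vector. In shCON, the negative control, they carried a scrambled hairpin in the same vector. Both groups received plasmid with Lipofectamine and were collected after 36 h, per the labels' protocols, whereas the design text calls the knockdown stable. The hairpin sequences, any selection and whether replicate libraries stem from separate cultures are not given in these sources, so each p-value rests on the spread among the libraries at hand, part of which may be technical. The title of the series places FAM49B in ovarian cancer growth and MAPK signalling, and gives no aim that concerns the nucleolus.

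Ribosomes are built mainly in the nucleolus. RNA polymerase I transcribes the precursor of the large ribosomal RNAs there, box C/D and box H/ACA ribonucleoproteins (snoRNPs) modify it by 2′-O-methylation and pseudouridylation, and separate sets of assembly factors fold and cut it on the paths to the small and the large subunit. In cancer cells these genes are known as targets of MYC, a transcription factor that binds the E-box CACGTG, and nucleolar output is known to follow growth signalling.

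FAM49B (also named CYRIB), the gene aimed at by the hairpins and coding for a RAC1-binding protein, had 1.06 and 1.02 FPKM (a read count divided by gene length and library depth) in shFAM49B, against 7.41 and 7.60 FPKM in shCON, 7.21-fold lower (log2 fold change -2.06, SE 0.0807; limma, adjusted p = 0.00054). MYC had 120.0 and 121 FPKM in shFAM49B, against 77.4 and 83.3 FPKM in shCON, a 1.5-fold rise (log2 fold change 0.58, SE 0.06; limma, adjusted p = 0.00276). Reads recovered from the FPKM steps came to 16288871 and 16290200 in shFAM49B and to 15639559 and 16875353 in shCON, where 1 read in a gene of 1 kb was worth 0.0541 to 0.0668 FPKM. MYC took 5522 and 5432 of these reads in shFAM49B and 3919 and 4621 in shCON. Its fold change is given on the deposited scale only. Markers of other cell types also moved between the groups. All 13 of 13 markers of stratified epithelium, among them KRT5, KRT14 and TP63, lay lower in both shFAM49B libraries than in either shCON library, summing to 44.3 and 46.3 FPKM in shFAM49B, against 616 and 551 FPKM in shCON, with none at 0. Of the 8 markers listed for an ovarian carcinoma line, KRT8 and KRT18 were present at 23.2 to 41.7 FPKM, PAX8 was at most 0.112 FPKM and MUC16 at most 0.00305 FPKM. EPCAM had 0.129 and 0.345 FPKM in shFAM49B, against 2.94 and 2.96 FPKM in shCON. The 8 summed to 62.6 and 63.0 FPKM in shFAM49B, against 74.3 and 71.7 FPKM in shCON, mostly from KRT8 and KRT18. Both shFAM49B libraries lay below both shCON libraries for 6 of the 8. Sums of 6 fibroblast markers (6.36 and 6.98 FPKM in shFAM49B, 6.41 and 6.79 FPKM in shCON) and of 5 leukocyte markers (1.42 and 1.10 FPKM in shFAM49B, 1.37 and 1.77 FPKM in shCON) overlapped between the groups. The 4 endothelial markers summed to 0.19 and 0.198 FPKM in shFAM49B and to 0.444 and 0.479 FPKM in shCON. The part of these cell types in the results below was not tested, and fewer cells of a type cannot be told apart here from less RNA per cell.

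The 40 genes did not move as a block. Genes whose 4 libraries averaged 1 FPKM or more were tested with limma on log2(FPKM + 1), with p adjusted over all 13775 tested genes and a threshold of 0.05. Of the 40, 39 were tested. In shFAM49B, 13 were higher (33.3%, beside 26.4% of all tested genes), 8 were lower (20.5%, beside 15.8% of all) and 18 did not pass; among all tested genes 42.2% passed in either direction. Both shares lay near the background, so the counts do not set these genes apart. The median log2 fold change of the 39 was 0.02, beside 0.05 over all tested genes, and single values ran between -0.56 for UBTF and 0.91 for TAF1D. Both shFAM49B libraries lay above both shCON libraries for 19 of the 39 (43.1% of all tested genes did so), below for 11 (31.6% of all tested genes), and overlapped with shCON for 9; over all tested genes 74.7% were separated in either direction. The 40 genes took 0.726% and 0.720% of the summed FPKM in shFAM49B and 0.724% and 0.718% in shCON. Their joint share of the summed FPKM thus overlapped between the groups, while its make-up did not stay the same. Of the recovered reads they took 0.8071% and 0.8046% in shFAM49B and 0.8271% and 0.8073% in shCON. By reads both shFAM49B libraries thus lay below both shCON libraries, by a narrow gap. In FPKM they summed to 2114 and 2162 in shFAM49B and to 1820 and 1778 in shCON, and without NPM1 to 1522 and 1558 in shFAM49B and 1368 and 1328 in shCON.

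**Figure D1:**
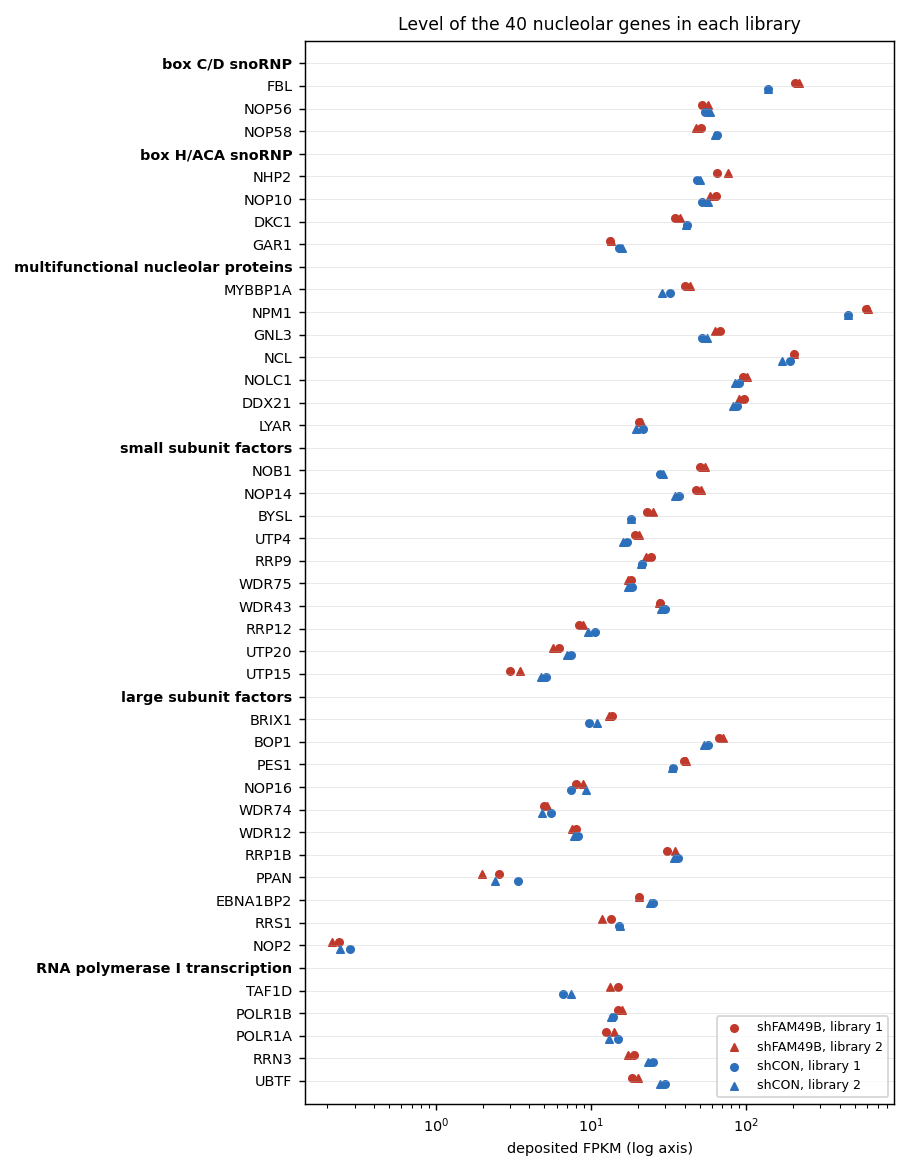
Deposited FPKM (log axis) of the 40 genes by role, with 1 point per library, shFAM49B in red and shCON in blue. Levels run between 0.214 FPKM for NOP2 and 604 FPKM for NPM1, and the order of the genes is much the same in the 4 libraries.

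How the libraries were scaled to one another decided many of the smaller differences. The deposited values had been scaled so that shFAM49B lay higher, relative to shCON, than division by each library's own reads would place it. On TPM the median log2 fold change of all tested genes was lower by 0.22 than on the deposited scale, with -0.17 over all genes and -0.22 over the 39, and 6 of the 39 were higher and 17 lower. Relative to the recovered reads 6 were also higher and 17 lower, with a median of -0.18 beside -0.13 over all genes. Lower calls also outnumbered higher ones among all tested genes, with 1597 higher and 4362 lower on TPM and 1722 and 4173 relative to recovered reads. With quantile normalisation the counts were 5 higher and 14 lower, and the median -0.14 beside 0.02. The quantile counts are given without those of all tested genes, so they do not set the 39 apart. Every other scaling shifted the median log2 fold change of all tested genes down from the deposited scale, between -0.035 (quantile) and -0.22 (TPM). Keeping a lower call under all 5 scalings was thus easier than keeping a higher one, and the counts that follow are not comparable. Under all 5 scalings, 4 genes were called higher (FBL, NOP14, NOB1 and TAF1D) and 8 lower (NOP58, GAR1, UTP15, UTP20, RRS1, EBNA1BP2, UBTF and RRN3). The other 9 higher genes lost their call under at least 1 scaling. Of the 12, FBL, NOP14, NOB1, TAF1D, NOP58 and UBTF also kept their call in each of the 15 settings run. The settings include leaving out each library in turn. How many of all tested genes keep a call under either rule is not given, so these counts do not set the 39 apart.

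**Figure D2:**
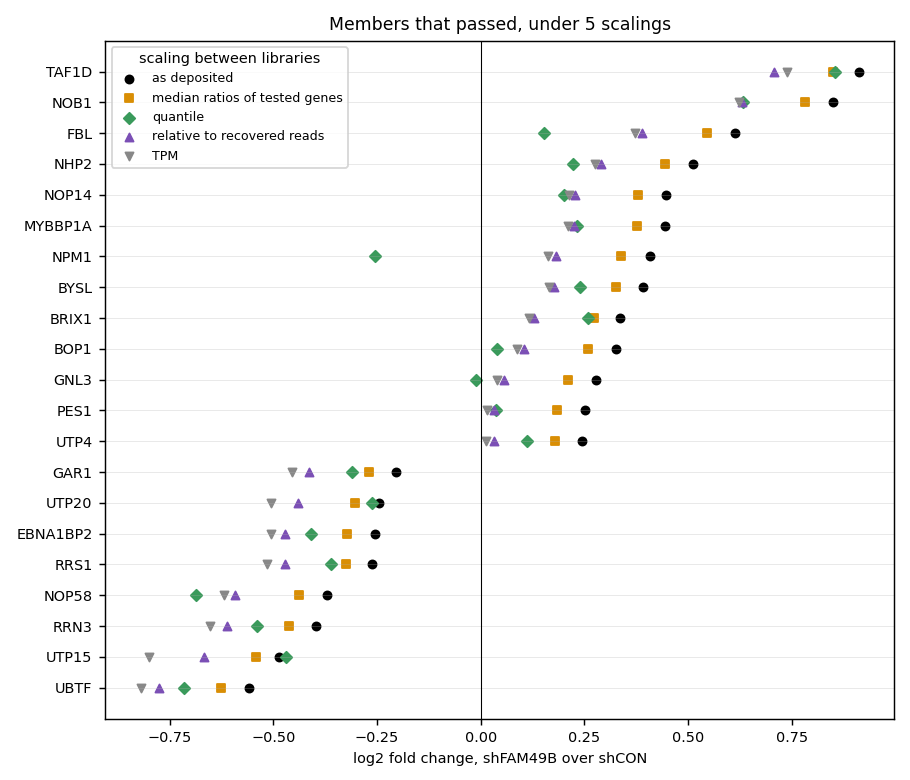
Log2 fold change of shFAM49B over shCON for the 21 genes that passed the test, with 1 marker per scaling. The 8 lower genes lie left of 0 under every scaling, and of the 13 higher genes NPM1 and GNL3 cross to the left under quantile normalisation.

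Within the box C/D snoRNP the core proteins diverged. FBL (fibrillarin, ENSG00000105202, chr19:39834458-39846414 on the minus strand of GRCh38) is the methyltransferase that places 2′-O-methyl groups on ribosomal RNA. It had 206 and 217 FPKM in shFAM49B, against 138 and 138 FPKM in shCON, and rose 1.54-fold (log2 fold change 0.61, SE 0.0567; limma, adjusted p = 0.00227). NOP58 (ENSG00000055044, chr2:202265716-202303666, plus strand), a scaffold protein that binds the guide RNA, had 50.6 and 47.1 FPKM in shFAM49B, against 64.3 and 62.5 FPKM in shCON. It fell 1.30-fold (log2 fold change -0.37, SE 0.0609; limma, adjusted p = 0.00808). Neither pair of libraries overlapped, and the genes moved in opposite directions. NOP56, the other scaffold protein, had 51.8 and 56.5 FPKM in shFAM49B, against 53.8 and 58.1 FPKM in shCON, with overlapping groups and a log2 fold change of -0.05 (SE 0.0713; limma, adjusted p = 0.62). The ratio of FBL to NOP58, which no scaling between libraries alters apart from quantile normalisation, was 4.07 and 4.61 in shFAM49B, against 2.15 and 2.20 in shCON. That of FBL to NOP56 was 3.98 and 3.85 in shFAM49B and 2.56 and 2.37 in shCON, while NOP56 to NOP58 was 1.02 and 1.20 in shFAM49B and 0.837 and 0.930 in shCON. On the per-length scale FBL was the most abundant of the 3 in all 4 libraries. A further core protein, SNU13, is counted below among the other small subunit factors. SNU13 had 42.6 and 44.5 FPKM in shFAM49B, against 34.1 and 37.3 FPKM in shCON. It was called higher (log2 fold change 0.28, limma adjusted p = 0.0235) and was named after its values were seen.

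The box H/ACA snoRNP, which turns uridines of ribosomal RNA into pseudouridines and shares its core proteins with telomerase, showed a similar spread. NHP2 (ENSG00000145912, chr5:178149460-178153967, minus strand), an RNA-binding core protein, had 64.9 and 76.2 FPKM in shFAM49B, against 47.9 and 50.2 FPKM in shCON, and rose 1.44-fold (log2 fold change 0.51, SE 0.0888; limma, adjusted p = 0.00947). GAR1, a core protein that binds the catalytic subunit, had 13.1 and 13.5 FPKM in shFAM49B, against 15.1 and 15.8 FPKM in shCON, and fell 1.16-fold (log2 fold change -0.20, SE 0.0593; limma, adjusted p = 0.0422). The libraries of each gene separated by group. DKC1 (dyskerin), the pseudouridine synthase itself, had 34.6 and 37.1 FPKM in shFAM49B, against 41.3 and 40.8 FPKM in shCON, and its log2 fold change of -0.19 (SE 0.0601) did not pass (limma, adjusted p = 0.0526), although it did as lower in 6 of the 15 settings. NOP10, the smallest core protein, had 63.5 and 58.6 FPKM in shFAM49B, against 51.7 and 56.9 FPKM in shCON (log2 fold change 0.17, SE 0.0742; limma, adjusted p = 0.128). Both genes were separated by group, DKC1 below and NOP10 above. The ratio of NHP2 to DKC1 was 1.88 and 2.05 in shFAM49B, against 1.16 and 1.23 in shCON, whereas DKC1 to GAR1 was 2.63 and 2.76 in shFAM49B and 2.73 and 2.58 in shCON. The call of GAR1 was lost without any 1 of the 4 libraries, at limma adjusted p of 0.106 to 0.185. The direction of NOP10 turned under TPM (-0.08), relative to recovered reads (-0.06) and under quantile normalisation (-0.12).

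**Figure D3:**
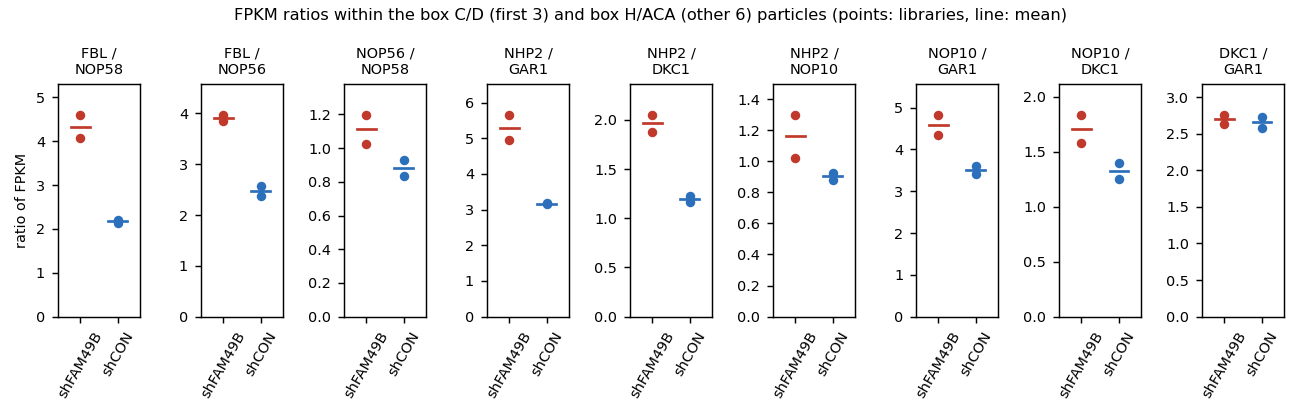
Ratios of FPKM between 3 core proteins of the box C/D particle (3 left panels) and between those of the box H/ACA particle (6 right panels). Each panel has 1 point per library and a line at the group mean, with shFAM49B left of shCON. SNU13 is not drawn. FBL to NOP58 lies above 4 in shFAM49B and near 2.2 in shCON, whereas DKC1 to GAR1 lies between 2.58 and 2.76 in all 4 libraries.

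Among the 7 multifunctional nucleolar proteins 3 rose, none fell and 4 did not pass, with a median log2 fold change of 0.17. Of all tested genes 26.4% were higher and 15.8% lower, so counts this small do not set the role apart. NPM1 (nucleophosmin, ENSG00000181163, chr5:171387116-171411137, plus strand), an abundant chaperone of the outer nucleolus, had 593 and 604 FPKM in shFAM49B, against 452 and 449.8 FPKM in shCON, and rose 1.33-fold (log2 fold change 0.41, SE 0.0569; limma, adjusted p = 0.00521). MYBBP1A, a Myb-binding protein that also acts on ribosomal RNA synthesis, had 40.4 and 43.3 FPKM in shFAM49B, against 32.4 and 28.7 FPKM in shCON, and rose 1.37-fold (log2 fold change 0.44, SE 0.0789; limma, adjusted p = 0.0101). GNL3 (nucleostemin), a GTP-binding protein of proliferating cells, had 67.7 and 63.1 FPKM in shFAM49B, against 51.4 and 56.1 FPKM in shCON, and rose 1.22-fold (log2 fold change 0.28, SE 0.0707; limma, adjusted p = 0.0287). All 3 had both shFAM49B libraries above both shCON libraries. NOLC1, a chaperone of snoRNPs, had 95.5 and 100.2 FPKM in shFAM49B, against 89.1 and 85.0 FPKM in shCON (log2 fold change 0.17; limma, adjusted p = 0.0704). NCL (nucleolin), an RNA-binding protein of early processing, had 202 and 204 FPKM in shFAM49B, against 191 and 169 FPKM in shCON (0.17; limma, adjusted p = 0.118). DDX21, an RNA helicase, had 97.0 and 89.9 FPKM in shFAM49B, against 87.5 and 81.9 FPKM in shCON (0.14; limma, adjusted p = 0.151). These 3 also separated by group without passing. LYAR, a zinc finger protein of the nucleolus, overlapped, with 20.4 and 20.9 FPKM in shFAM49B and 21.6 and 19.5 FPKM in shCON (0.01; limma, adjusted p = 0.931). The direction of this group rested on the scaling: under quantile normalisation NPM1 was called lower (-0.26), GNL3 stood at -0.01, and NCL (-0.31), NOLC1 (-0.20), DDX21 (-0.20) and LYAR (-0.14) were below 0, and on TPM and relative to recovered reads NCL, NOLC1, DDX21 and LYAR were below 0 as well. The calls of NPM1 and MYBBP1A were lost without the second shFAM49B library (limma, adjusted p = 0.0615 and 0.0622), and that of GNL3 without the first (0.124) or second shFAM49B library (0.0687) or the first shCON library (0.115).

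Of the 10 small subunit factors 4 rose, 2 fell and 4 did not pass, with a median log2 fold change of 0.07. Beside 26.4% higher and 15.8% lower among all tested genes, these counts do not set the role apart. The largest rise was that of NOB1 (ENSG00000141101, chr16:69741867-69754940, minus strand), the endonuclease that makes the last cut of 18S ribosomal RNA. It had 49.9 and 53.9 FPKM in shFAM49B, against 27.8 and 28.8 FPKM in shCON, and rose 1.83-fold (log2 fold change 0.85, SE 0.0631; limma, adjusted p = 0.00168). NOP14, a scaffold of the early small subunit processome, had 47.3 and 51.0 FPKM in shFAM49B, against 36.6 and 34.8 FPKM in shCON, and rose 1.37-fold (log2 fold change 0.45, SE 0.0646; limma, adjusted p = 0.0057). BYSL (bystin), which joins late precursors of the subunit, had 22.9 and 25.2 FPKM in shFAM49B, against 17.96 and 18.2 FPKM in shCON, and rose 1.33-fold (log2 fold change 0.39, SE 0.0669; limma, adjusted p = 0.00902). The libraries of these 3 genes separated by group with a gap wider than the spread within either group. UTP4 rose 1.20-fold (log2 fold change 0.24; limma, adjusted p = 0.0319), but its call was lost without any 1 of the 4 libraries (0.0557 to 0.138).

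UTP4, UTP15, WDR43 and WDR75 belong to one early-binding complex, known as UtpA in yeast, that links transcription of the precursor to its processing, and their levels did not move together. UTP15 had 2.99 and 3.46 FPKM in shFAM49B, against 5.09 and 4.74 FPKM in shCON, and fell 1.52-fold (log2 fold change -0.49, SE 0.0908; limma, adjusted p = 0.0115). WDR43 had 27.6 and 27.3 FPKM in shFAM49B, against 30.03 and 28.3 FPKM in shCON (log2 fold change -0.08; limma, adjusted p = 0.286). WDR75 had 17.98 and 17.3 FPKM in shFAM49B, against 18.2 and 17.3 FPKM in shCON (-0.01; limma, adjusted p = 0.95). Of the 4, UTP4 was thus higher, UTP15 lower and the other 2 did not pass. UTP20, a very large processome component, had 6.21 and 5.65 FPKM in shFAM49B, against 7.39 and 7.01 FPKM in shCON, and fell 1.21-fold (log2 fold change -0.24, SE 0.0749; limma, adjusted p = 0.0491). RRP12, which acts in export and maturation of subunits, had 8.32 and 8.85 FPKM in shFAM49B, against 10.6 and 9.52 FPKM in shCON (-0.21; limma, adjusted p = 0.0842). Both UTP20 and RRP12 separated by group, below shCON. RRP9, a U3 snoRNP protein, lay above shCON in both libraries without passing, with 24.3 and 22.5 FPKM in shFAM49B and 21.3 and 20.9 FPKM in shCON (0.14; limma, adjusted p = 0.127), and turned below 0 on TPM, relative to recovered reads and under quantile normalisation. The call of UTP15 was lost without the first shCON library (limma, adjusted p = 0.0759), and that of UTP20 without any 1 of the 4 (0.0648 to 0.217).

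Of the 11 large subunit factors 3 rose, 2 fell, 5 did not pass and NOP2 was not tested. The median log2 fold change was -0.03 over the 10 tested. These counts lay near the shares of all tested genes (26.4% higher, 15.8% lower). BOP1, PES1 and WDR12 form the PeBoW complex, which acts on the path to 28S and 5.8S ribosomal RNA. BOP1 had 66.7 and 71.1 FPKM in shFAM49B, against 56.3 and 53.2 FPKM in shCON, and rose 1.26-fold (log2 fold change 0.33, SE 0.0625; limma, adjusted p = 0.0124). PES1 had 39.5 and 40.6 FPKM in shFAM49B, against 33.8 and 33.1 FPKM in shCON, and rose 1.20-fold (log2 fold change 0.25, SE 0.0535; limma, adjusted p = 0.0169). WDR12 had 7.98 and 7.55 FPKM in shFAM49B, against 8.18 and 7.74 FPKM in shCON (-0.03; limma, adjusted p = 0.733). The first pair of the complex thus separated by group and rose, whereas the third overlapped, and on the per-length scale WDR12 was several-fold below its partners in every library. BRIX1, a factor of early large subunit precursors, had 13.6 and 12.9 FPKM in shFAM49B, against 9.67 and 10.9 FPKM in shCON, and rose 1.29-fold (log2 fold change 0.34, SE 0.0782; limma, adjusted p = 0.0222). The calls of these rises were lost for PES1 without any 1 of the 4 libraries (limma, adjusted p = 0.0554 to 0.0813), for BOP1 without the second library of shFAM49B (0.0714) or shCON (0.0588), and for BRIX1 without the first (0.0936) or second (0.0735) shFAM49B library or the first shCON library (0.101).

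EBNA1BP2, a dynamic component of large subunit precursors, had 20.2 and 20.5 FPKM in shFAM49B, against 25.1 and 23.8 FPKM in shCON, and fell 1.20-fold (log2 fold change -0.26, SE 0.0579; limma, adjusted p = 0.0206). RRS1, which in yeast brings the 5S ribonucleoprotein into the precursor, had 13.4 and 11.8 FPKM in shFAM49B, against 15.2 and 15.3 FPKM in shCON, and fell 1.21-fold (log2 fold change -0.26, SE 0.0771; limma, adjusted p = 0.0437). Both separated by group, below shCON. Their calls were lost on leaving out a library: EBNA1BP2 without any 1 of the 4 (limma, adjusted p = 0.0544 to 0.103), and RRS1 without the second shFAM49B library (0.143) or the first (0.142) or second (0.149) shCON library. The 5 that did not pass all had overlapping groups. RRP1B, which takes part in late processing, had 30.8 and 34.6 FPKM in shFAM49B, against 36.0 and 34.2 FPKM in shCON (-0.10; limma, adjusted p = 0.313). NOP16 had 8.04 and 8.85 FPKM in shFAM49B, against 7.44 and 9.28 FPKM in shCON (0.02; limma, adjusted p = 0.903). WDR74 had 4.94 and 5.16 FPKM in shFAM49B, against 5.54 and 4.83 FPKM in shCON (-0.03; limma, adjusted p = 0.81). PPAN spread most between libraries of a group, with 2.55 and 1.99 FPKM in shFAM49B, against 3.37 and 2.41 FPKM in shCON (-0.24, SE 0.16; limma, adjusted p = 0.268). NOP2, an RNA methyltransferase of 28S ribosomal RNA, was below the level tested, with 0.237 and 0.214 FPKM in shFAM49B, against 0.278 and 0.242 FPKM in shCON. These values rest on 17 and 15 reads in shFAM49B and 22 and 21 reads in shCON, too few to show a difference of this size.

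The 5 proteins of RNA polymerase I transcription held both ends of the range. TAF1D (ENSG00000166012, chr11:93729948-93784391, minus strand), a subunit of the promoter selectivity factor SL1, had 14.9 and 13.2 FPKM in shFAM49B, against 6.60 and 7.37 FPKM in shCON, and rose 2.01-fold (log2 fold change 0.91, SE 0.0873; limma, adjusted p = 0.00237). UBTF (ENSG00000108312, chr17:44205033-44221626, minus strand), the HMG-box protein that coats active ribosomal DNA, had 18.4 and 19.98 FPKM in shFAM49B, against 29.8 and 27.8 FPKM in shCON, and fell 1.5-fold (log2 fold change -0.56, SE 0.0697; limma, adjusted p = 0.00394). RRN3, the initiation factor that makes the polymerase competent and is known as a target of growth signalling kinases, had 18.8 and 17.3 FPKM in shFAM49B, against 25.03 and 23.2 FPKM in shCON, and fell 1.33-fold (log2 fold change -0.40, SE 0.0717; limma, adjusted p = 0.0105). All 3 separated by group. POLR1A, the largest subunit of the polymerase, had 12.5 and 14.1 FPKM in shFAM49B, against 14.9 and 13.1 FPKM in shCON, and overlapped (-0.07; limma, adjusted p = 0.588). POLR1B, its partner in the catalytic centre, had 14.9 and 15.7 FPKM in shFAM49B, against 13.8 and 13.3 FPKM in shCON (0.16; limma, adjusted p = 0.0827), and turned below 0 on TPM and relative to recovered reads. The call of RRN3 was lost without the second shFAM49B library (limma, adjusted p = 0.0574) or the first shCON library (0.0579).

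**Figure D4:**
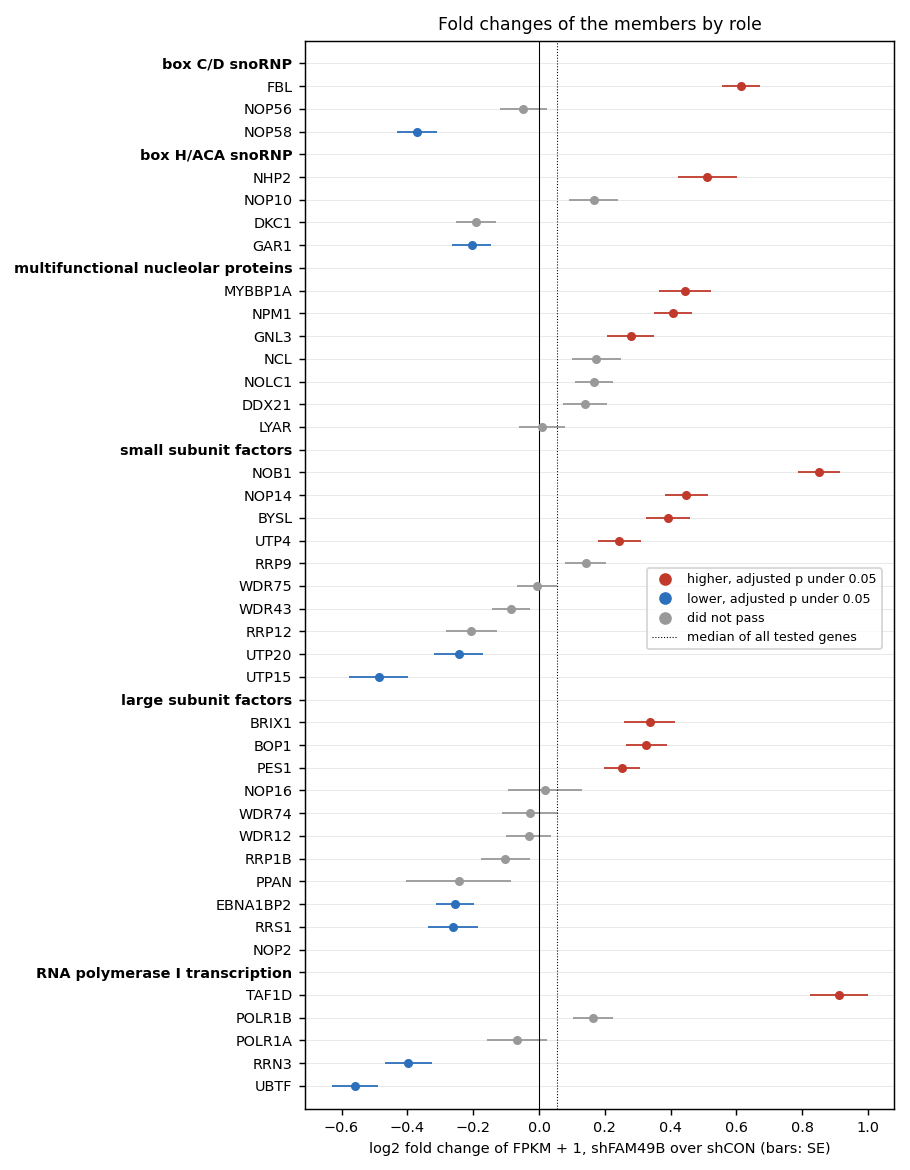
Log2 fold change of shFAM49B over shCON on log2(FPKM + 1) with its SE, by role, with the dotted line at the median of all tested genes (0.05). In each role except the multifunctional nucleolar proteins, genes that passed lie on both sides of 0.

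The promoters of these genes share letters that the choice of genes did not use. RefSeq promoters on GRCh38.p14, 250 bases before to 50 bases after the gene start, were matched for 34 of the 40 (not for NOP58, NOLC1, RRP12, BOP1, RRP1B and RRS1). The E-box CACGTG, which reads the same on both strands, stood in 12 of 34 (35.3%), beside 10.3% of the 9104 promoters of tested genes and 7.26% of all 35116 promoters. The ETS-type core CCGGAA, on either strand, stood in 16 of 34 (47.1%), beside 30.9% of those of tested genes and 17.2% of all. The TATA letters TATAAA, on either strand, stood in 1 of 34 (2.94%, UTP20), beside 4.76% of those of tested genes and 11.5% of all. Each motif was counted separately, whatever its overlap with another. Stretches of 26 bases on the gene's strand are shown for genes that were higher and lower, with the E-box in capitals, because genes of opposite direction carried the same letters.
FBL: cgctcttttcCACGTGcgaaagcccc
NOP14: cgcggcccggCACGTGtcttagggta
MYBBP1A: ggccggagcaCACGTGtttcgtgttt
UTP4: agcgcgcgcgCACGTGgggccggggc
BYSL: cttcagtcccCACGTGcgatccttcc
PES1: cttggcagggCACGTGcgggaggaag
UTP20: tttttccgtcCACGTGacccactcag
EBNA1BP2: tattgttggcCACGTGggatcgaaga
FBL (chr19:39846358-39846383), NOP14 (chr4:2963376-2963401), MYBBP1A (chr17:4555342-4555367), PES1 (chr22:30591882-30591907) and EBNA1BP2 (chr1:43172792-43172817) are on the minus strand, and UTP4 (chr16:69132623-69132648), BYSL (chr6:41921517-41921542) and UTP20 (chr12:101280085-101280110) on the plus strand. The first 6 were higher in shFAM49B, and UTP20 and EBNA1BP2 lower.

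The other 4 genes with an E-box were NOP10, RRP9 and WDR43, which did not pass, and NOP2. The E-box began after the gene start in FBL (position 7), NOP14 (16), MYBBP1A (28), BYSL (29) and PES1 (14), and before it in UTP4 (position -16), UTP20 (-10) and EBNA1BP2 (-237). With an E-box, 6 genes were higher, 2 lower and 3 not passed. Without one, 6 of 22 were higher, 4 lower and 12 not passed. Among all tested genes with a promoter in the table, 29.6% of the 939 with an E-box and 29.2% of the 8165 without were higher, and 16.9% with and 14.9% without were lower. A match of letters is a description and no binding was measured.

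Base composition and length were set beside the calls. The median GC content of the transcripts was 54.3% in the 13 higher genes, 44.7% in the 8 lower and 48.2% in the 18 that did not pass, and the median gene length was 3716, 3858 and 4634 bases in the same order. Over the 39 genes the Spearman correlation of the log2 fold change was 0.11 with GC content and -0.21 with gene length, which share the same 4 libraries and are given as a description. Over 11394 tested protein-coding genes it was 0.24 with GC content and -0.12 with length. The part of base composition in the results was not tested.

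Several of the 40 loci hold or touch other genes, which bears on how reads were assigned. How the counting treated strand is not given in the sources used here, so for genes on opposite strands reads cannot be told apart. NHP2 shares 27.4% of its exon bases with RMND5B on the other strand, which had 8.93 and 9.75 FPKM in shFAM49B and 8.91 and 9.12 FPKM in shCON. NOP14 shares 17.1% with NOP14-AS1, at 1.95 and 2.25 FPKM in shFAM49B and 2.18 and 2.68 FPKM in shCON. NOB1 shares 20.2% with the antisense gene AC092115.3, listed at 0 in all 4 libraries. RMND5B and NOP14-AS1 overlapped between the groups, unlike NHP2 and NOP14. NOP16 shares 12.02% with ARL10 (1.34 and 1.21 FPKM in shFAM49B, 2.55 and 2.84 FPKM in shCON) and 7.93% with HIGD2A (87.0 and 92.0 FPKM in shFAM49B, 46.2 and 54.6 FPKM in shCON). BRIX1 shares 9.62% with RAD1, at 6.30 and 6.74 FPKM in shFAM49B and 7.04 and 7.11 FPKM in shCON. TAF1D shares 17.3% in all, NOP56 8.74% and DKC1 5.85%, each spread over several genes that share under 5% singly. The largest single share in TAF1D is 2.97% with CEP295, at 4.37 and 3.84 FPKM in shFAM49B and 5.01 and 5.09 FPKM in shCON. On the same strand, NOP2 shares 54.4% of its exon bases with AC006064.6 and PPAN 56.0% with PPAN-P2RY11, both listed at 0 in all 4 libraries, so the low levels of NOP2 and PPAN are uncertain. EBNA1BP2 shares 18.8% with CFAP57, WDR74 12.2% with AP001160.1 and 5.58% with TEX54, RRS1 11.4% with AC009879.2, RRP12 6.09% with AL355490.2 and PES1 5.40% with TCN2, all at or under 0.551 FPKM in every library. NPM1 has 45 annotated pseudogenes, which summed to 45.0 and 45.1 FPKM in shFAM49B and 37.0 and 35.3 FPKM in shCON, mostly from NPM1P27 (39.9 and 39.4 FPKM in shFAM49B, 29.7 and 30.9 FPKM in shCON), so some of the NPM1 reads may belong to a copy or the reverse. The 3 pseudogenes of RRN3 summed to 1.53 and 1.47 FPKM in shFAM49B and 2.18 and 2.46 FPKM in shCON.

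Many of these loci are also hosts of the small nucleolar RNAs that guide the snoRNPs, with 33 snoRNA genes inside 8 of them. Of the 18 that share exon bases with their host, 17 were listed at 0 in all 4 libraries. Of the 15 in introns, 2 were at 0 and 9 had both shFAM49B libraries above both shCON libraries, which 43.1% of all tested genes also had. Of these 9, 5 had at most 8 reads in every library, for example SNORD92 with 2 and 2 reads in shFAM49B and 0 and 0 in shCON, so their order is not firm at this depth. SNORD6 in TAF1D had 16.1 and 7.32 FPKM in shFAM49B, against 3.25 and 1.48 FPKM in shCON. SNORD19 in GNL3 had 17.3 and 12.8 FPKM in shFAM49B, against 6.10 and 3.18 FPKM in shCON. SNORD53B in WDR43 had 15.1 and 14.6 FPKM in shFAM49B, against 3.04 and 0.693 FPKM in shCON. These 3 were named after their values were seen, and mature snoRNA and host intron reads cannot be told apart in a table per gene.

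Beyond the 40 genes, other genes of the pathway also moved in both directions. On each scaling given in this paragraph, the direction with more calls was the same as among all tested genes. On the deposited scale higher calls outweighed lower ones by more than among all tested genes. Of 146 other ribosome biogenesis genes, 145 were tested (DDX47 was not), and 50 were higher (34.5%, beside 26.4% of all tested genes), 15 lower (10.3%, beside 15.8% of all) and 80 did not pass, with a median log2 fold change of 0.13. On TPM 19 were higher and 47 lower, beside 1597 and 4362 of all tested genes, and relative to recovered reads 24 were higher and 44 lower, beside 1722 and 4173 of all. By role, 13 rose and 6 fell of 41 other small subunit factors, and 18 rose and 2 fell of 48 other large subunit factors. Of 18 other RNA polymerase I genes 5 rose and 2 fell, and of 24 genes of the exosome and RNase MRP 9 rose and 2 fell. Of 12 genes listed under snoRNP assembly and export 3 rose and 3 fell. The 3 that rose include NOP9, whose place in this list is uncertain. The 146 also hold RPL5 and RPL11, both higher, which count again among the cytosolic ribosomal protein genes below. No role was tested against the shares of all tested genes.

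Up to 2 genes of each list are given for each direction, those with the smallest p in that direction, so that both directions appear by choice and their balance is that of the counts above. NOP53, a large subunit factor, had 74.4 and 80.1 FPKM in shFAM49B, against 39.4 and 38.6 FPKM in shCON (log2 fold change 0.97; limma, adjusted p = 0.00128). RPF2, which in yeast works as a pair with RRS1, had 11.9 and 11.8 FPKM in shFAM49B, against 17.8 and 18.1 FPKM in shCON (-0.56; limma, adjusted p = 0.00259). RPF2 and RRS1 were thus both lower, whereas the proteins of the 5S ribonucleoprotein that they load were both higher. RPL5 had 514 and 506 FPKM in shFAM49B, against 293 and 305 FPKM in shCON (0.77; limma, adjusted p = 0.00171), and RPL11 had 364 and 375 FPKM in shFAM49B, against 216 and 224 FPKM in shCON (0.74; limma, adjusted p = 0.00175), although under quantile normalisation these values were 0.01 and 0.05 and neither passed. DDX54, an RNA helicase, had 37.3 and 39.3 FPKM in shFAM49B, against 23.0 and 22.0 FPKM in shCON (0.74), and RRP15 had 4.62 and 4.15 FPKM in shFAM49B, against 6.47 and 6.63 FPKM in shCON (-0.49). Among small subunit factors TBL3, of the processome, had 17.1 and 18.4 FPKM in shFAM49B, against 9.86 and 10.1 FPKM in shCON (0.77; limma, adjusted p = 0.00193), and BUD23, an 18S ribosomal RNA methyltransferase, had 15.98 and 15.5 FPKM in shFAM49B, against 10.5 and 10.2 FPKM in shCON (0.56). NOL6, also of the processome, fell, with 7.77 and 8.78 FPKM in shFAM49B, against 13.3 and 13.6 FPKM in shCON (-0.64; limma, adjusted p = 0.00347). LTV1, of late precursors, had 10.6 and 10.3 FPKM in shFAM49B, against 13.4 and 13.1 FPKM in shCON (-0.32; limma, adjusted p = 0.0109).

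POLR2H and POLR2E, subunits that RNA polymerase I shares with the other nuclear polymerases, rose by 0.51 and 0.43 on the log2 scale (limma, adjusted p = 0.00401 and 0.00477), with 22.7 and 23.8 FPKM for POLR2H and 50.4 and 53.9 FPKM for POLR2E in shFAM49B, against 15.5 and 16.5 FPKM and 38.4 and 38.3 FPKM in shCON. CD3EAP, a subunit of RNA polymerase I, fell (log2 fold change -0.52; limma, adjusted p = 0.043), with 0.998 and 0.821 FPKM in shFAM49B, against 1.96 and 1.52 FPKM in shCON, and so did the topoisomerase TOP1 (-0.26; limma, adjusted p = 0.0392), with 52.6 and 51.1 FPKM in shFAM49B, against 66.1 and 58.7 FPKM in shCON. The list did not divide by kind of subunit: the shared subunit POLR2K lay below shCON without passing (-0.23; limma, adjusted p = 0.0531), and POLR1E, a subunit of RNA polymerase I, was higher (0.26; limma, adjusted p = 0.0236); these 2 were chosen after their values were seen. In the snoRNP assembly and export list, NOP9 rose by 0.64, with 9.91 and 10.3 FPKM in shFAM49B, against 6.39 and 5.86 FPKM in shCON. The place of NOP9 in this list is uncertain. The ATPase RUVBL2 rose by 0.54, with 80.8 and 86.6 FPKM in shFAM49B, against 58.2 and 56.4 FPKM in shCON. TGS1, which methylates the cap of some snoRNAs, fell by 0.33. It had 10.5 and 11.1 FPKM in shFAM49B, against 14.4 and 13.4 FPKM in shCON. RPAP3, a partner of RUVBL2 in the R2TP chaperone, fell by 0.45. It had 8.17 and 6.83 FPKM in shFAM49B, against 10.8 and 10.4 FPKM in shCON. POP7 of RNase MRP rose by 0.66, with 90.3 and 90.4 FPKM in shFAM49B, against 54.7 and 59.4 FPKM in shCON, whereas RPP25, a subunit of the same enzyme, fell by 0.88, with 16.4 and 19.4 FPKM in shFAM49B, against 31.5 and 36.1 FPKM in shCON. EXOSC10, a nuclease of the exosome, rose by 0.46 (23.3 and 23.7 FPKM in shFAM49B, 16.9 and 16.7 FPKM in shCON), and its partner C1D fell by 0.22 (5.21 and 5.06 FPKM in shFAM49B, 6.11 and 6.22 FPKM in shCON). The falls of LTV1, TOP1, CD3EAP, TGS1, RPAP3 and C1D each lost their call without at least 1 library (limma, adjusted p up to 0.0677, 0.157, 0.169, 0.0852, 0.0827 and 0.187), and the other rises and falls given here, POLR1E aside, kept it.

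The ribosomal proteins themselves are the parts that these factors assemble. Of 83 cytosolic ribosomal protein genes 81 were tested, and 78 were higher (96.3%), none lower and 3 (RPL39L, RPL36A and RPS27L) not passed, with a median log2 fold change of 0.77, beside 0.02 for the 39 ribosome biogenesis genes. Under quantile normalisation 55 were higher and 1 lower, given without the counts of all tested genes. The difference between these lists was not tested.

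**Figure D5:**
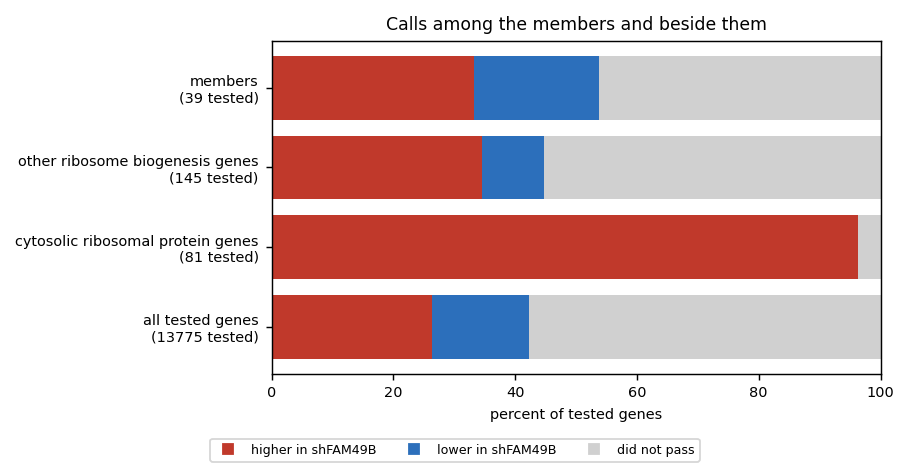
Percent of tested genes called higher (red), lower (blue) or not passed (grey) in shFAM49B for the 39 tested ribosome biogenesis and nucleolar genes, 145 other ribosome biogenesis genes, 81 cytosolic ribosomal protein genes and all 13775 tested genes. The first bar holds 33.3% higher and 20.5% lower, beside 96.3% higher and none lower among ribosomal protein genes. RPL5 and RPL11 count both among the other ribosome biogenesis genes and among the ribosomal protein genes.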

How the data were processed

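The authors deposited one table of FPKM values per gene for 4 RNA-seq libraries of OVCAR8; per the labels' protocols the libraries came from total RNA and the NEBNext Ultra kit. Aligner and counter are not given in these sources. Of genome builds, GRCm38 and mm10, both of mouse, stand in the submitters' processing notes, but all 58735 identifiers and coordinates equal human GENCODE release 29, so positions are on GRCh38. Multiplied by gene length, each FPKM value was a whole multiple of 1 step (tolerance 0.001 of a step), which gave back the reads. The denominators were 0.941 and 0.919 times the reads in shFAM49B and 1.08 and 1.10 times in shCON, so the deposited values already carry a factor between libraries.

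The log2(FPKM + 1) values were compared by limma 3.58.1 (R 4.3.3), moderated by empirical Bayes with a mean-variance trend, for genes averaging 1 FPKM or more; tests were 2-sided with Benjamini-Hochberg adjustment. Log2 fold changes on this scale understate low genes, and folds are ratios of mean FPKM. Residual degrees of freedom were 2, with 3.32 added by moderation. Other steps ran in Python 3.11.15 with pandas 2.3.3. In a group, libraries differed by a chi-square of 3.48 (shFAM49B) and 3.90 (shCON) per gene, against 48.9 to 56.1 between groups, so each was kept as 1 sample. The procedure was tested on simulated reads. The genes and lists were chosen with earlier results of these data known. Each of the 40 genes is named with its call, with library values for up to 4 of smallest p in each role, those that fell and those not passed or tested, plus up to 2 other genes per list and direction, FAM49B and MYC. Of 33 genes other than snoRNAs that share exon bases with one of the 40, those sharing under 5% are counted and mostly not named. Alternatives were other pseudocounts, filters, scalings, voom with TMM on the recovered reads, no trend, the replicate number as a block, and leaving out each library.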

Additional observations from a re-analysis of the deposited data

How the results depend on the processing

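The counts of higher and lower calls moved most with the scaling between libraries. Without a filter, 8 of the 39 ribosome biogenesis and nucleolar genes were higher and 4 lower, of the other pathway genes 33 and 6, and of all genes 2185 and 1378; a filter at 5 FPKM gave 1322 lower among all genes. On TPM the pairs of counts were 6 and 17, 19 and 47, and 1597 and 4362. Relative to recovered reads they were 6 and 17, 24 and 44, and 1722 and 4173. Quantile normalisation gave 5 and 14 among the 39, 33 other pathway genes higher, and 55 ribosomal protein genes higher and 1 lower; median ratios gave 11 and 10, with 23 other pathway genes lower; voom gave 13 and 12, with 29 other pathway genes and 3514 of all genes lower; without the trend the counts were 11 and 5. Same-numbered libraries did not deviate together (correlation -0.0132), so their numbers were not taken to pair them. With the replicate number as a block 12 were higher and 5 lower. Pairs of counts given here without those of all tested genes do not set the listed genes apart. Leaving out 1 library, where the lone library left in its group is assumed to vary like the other group, gave 6 to 10 higher and 2 to 5 lower of the 39, 32 to 37 and 4 to 8 of the other pathway genes, and 1897 to 2495 and 1027 to 1529 of all genes.

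The median log2 fold change of the 39 was 0.14 with a filter at 5 FPKM, -0.22 on TPM, -0.18 relative to recovered reads, -0.0421 with median ratios, -0.14 under quantile normalisation, -0.0632 by voom and 0.0191 to 0.0863 with 1 library left out. Single genes turned direction as follows. On TPM the log2 fold changes were -0.075 for NOP10, -0.07 for NCL, -0.0757 for NOLC1, -0.2324 for LYAR, -0.1032 for DDX21, -0.0958 for RRP9, -0.2154 for NOP16 and -0.0674 for POLR1B. Relative to recovered reads they were -0.0551, -0.0505, -0.056, -0.2062, -0.0832, -0.0742, -0.1821 and -0.0462 for the same 8 genes in that order. Under quantile normalisation NOP10 had -0.1216, NCL -0.3079, NPM1 -0.2553 (called lower), NOLC1 -0.1982, LYAR -0.1411, GNL3 -0.0122, DDX21 -0.203, RRP9 -0.0127 and NOP16 -0.0227. LYAR and NOP16 had -0.057 and -0.0421 with median ratios and -0.0687 and -0.0632 by voom. With 1 library left out, NOP56 lay between -0.109 and 0.0133, LYAR between -0.0618 and 0.0793, WDR75 between -0.0424 and 0.0314, NOP16 between -0.1229 and 0.162, WDR12 between -0.0668 and 0.0038, WDR74 between -0.112 and 0.0549, and POLR1A between -0.154 and 0.0207. The cause of these changes was not tested. Over 14 alternatives, 399 of 544 values of the 39 genes kept direction and side of the threshold, 76 lost their call, 27 gained one and 42 turned direction. FAM49B kept its call wherever it was fitted; it, UTP15 and PPAN had no value at a filter of 5 FPKM. At this depth NOP2, with 15 to 22 reads, could not be tested.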
